A study of Mus musculus with 10 samples.

Results

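The 9 genes described here encode complement components of the classical pathway and proteins that act on them: the C1q chains C1qa, C1qb and C1qc, the C1 proteases C1ra and C1s1, the components C4b and C3, the C3a receptor C3ar1 and the C1 inhibitor Serping1. They were chosen by gene name, and all 9 of 9 names were found among the 35275 genes of the table. RNA was taken at postnatal day 22 from motor cortex, all mice being C57BL/6, and 2 groups were compared: 5 mice labelled as a conditional knockout of membralin in astrocytes (KO) and 5 mice labelled wild type (WT). Membralin is the product of Tmem259 and sits in the membrane of the endoplasmic reticulum. The labels do not name the Cre driver of the KO mice or any floxed or Cre allele carried by the WT mice. The values are FPKM, fragments per kilobase of gene length, scaled to library depth. They correspond to between 22968013 and 27567361 fragments per KO library and between 22793058 and 28827871 fragments per WT library.

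C1q is the recognition molecule of the classical pathway, built from the products of C1qa, C1qb and C1qc. When it binds a surface, the attached proteases C1r and C1s cleave C4, and the convertase that forms then cleaves C3. C3 fragments mark the surface for uptake, and the small fragment C3a signals through C3ar1. In brain, microglia are the main source of C1q, astrocytes are a known source of C4 and C3, and complement is known for marking synapses that microglia remove during development.

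The library labelled KO3 stood apart. Tmem259 measured 34.4 FPKM in it, above the WT range of 23.8 to 32.4 FPKM. Whether its label is right was not tested. Tmem259 of whole cortex cannot settle it, because the knockout is labelled as one of astrocytes only. Tmem259 was below every WT library in KO1, KO2 and KO4, at 20.1, 18.5 and 16.9 FPKM, and inside the WT range in KO5, at 26.2 FPKM. For 8 of the 9 complement genes the lowest KO value was in the library labelled KO3, C1s1 being the exception. Results are given with and without it. Cortical neuron markers were high in every library, with summed levels of 1401 to 1548 FPKM in KO and 1339 to 1520 FPKM in WT. Markers of the olfactory bulb also differed between libraries. Their summed level, over 7 genes of which Th and Lbhd2 were called higher in KO, was 15.2 to 63.6 FPKM in KO and 4.52 to 29.5 FPKM in WT. Omp, a gene of olfactory sensory neurons, was at least 1 FPKM in 4 of the 5 KO libraries and 2 of the 5 WT libraries.

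Promoters of C1qb, C1qc and C3, from the RefSeq table (build GRCm38.p6), are shown first, because C1qb and C1qc are neighbours that moved together and C3 is the component on which the pathways converge. Of the 9 genes, 6 had such an entry. Each line gives the 250 bases before the annotated start, 5′ to 3′ on the minus strand, and capitals mark matches to a motif.
C1qb promoter, chr4:136886201-136886450: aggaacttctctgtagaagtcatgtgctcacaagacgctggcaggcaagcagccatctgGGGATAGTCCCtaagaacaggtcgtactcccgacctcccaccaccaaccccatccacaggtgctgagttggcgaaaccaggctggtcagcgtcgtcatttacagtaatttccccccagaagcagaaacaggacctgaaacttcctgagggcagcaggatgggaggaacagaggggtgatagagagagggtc
C1qc promoter, chr4:136892915-136893164: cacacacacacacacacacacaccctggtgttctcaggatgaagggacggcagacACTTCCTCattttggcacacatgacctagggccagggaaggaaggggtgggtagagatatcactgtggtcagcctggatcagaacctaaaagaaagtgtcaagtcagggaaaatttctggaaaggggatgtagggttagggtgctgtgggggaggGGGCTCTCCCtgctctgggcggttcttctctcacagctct
C3 promoter, chr17:57228137-57228386: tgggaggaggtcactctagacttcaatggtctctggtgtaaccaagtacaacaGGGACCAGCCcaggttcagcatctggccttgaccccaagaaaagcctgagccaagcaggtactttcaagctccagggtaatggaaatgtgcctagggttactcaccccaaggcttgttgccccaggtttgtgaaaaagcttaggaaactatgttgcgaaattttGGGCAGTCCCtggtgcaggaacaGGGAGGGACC
The motifs searched, on both strands, were GAGGAAGT (PU.1, a factor of myeloid cells), TTCNNNGAA (GAS, the site of STAT factors), a pair of GAAA runs separated by 2 bases (ISRE, the interferon response element) and GGGA followed by 4 bases of any kind and CC (NF-kB). They occur in 2.44%, 7.02%, 2.98% and 17.6% of the 32851 promoters of the table. The C1qc promoter held a match to the PU.1 motif at -195 to -188, counted in bases from the start, and a match to the NF-kB motif at -40 to -31. In the deposited annotation C1qc reaches base 136893065, which is inside this window, so the NF-kB match lies within the gene as annotated there. The C1qb promoter held 2 overlapping matches to the NF-kB motif between -191 and -181. The C3 promoter held 3 matches to that motif, at -197 to -188, -33 to -24 and -10 to -1. No match to the 4 motifs was found for C1ra and C3ar1, and 1 of the 2 annotated starts of C1s1 had an NF-kB match, also within the gene as deposited. A match is a run of letters in the window and was not tested for binding.

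Of the 9 complement genes 7 had a mean of at least 0.5 FPKM over the 10 libraries and were tested, and these 7 were higher in KO cortex (limma adjusted p between 0.0180 and 0.0434). In the same comparison 9.77% of the 14497 tested genes were called higher and 3.51% lower. That balance depended on scaling: with median-of-ratios scaling of the libraries 625 of the 14497 were called higher and 901 lower. Of the 7 complement genes 6 passed with that scaling, C3ar1 being the exception (limma adjusted p = 0.0561). C4b rose 6.05-fold, the 3 C1q chains rose 1.74-fold to 1.78-fold and Serping1 rose 2.12-fold, as ratios of group mean FPKM. C3 and C3ar1 had WT means under 0.5 FPKM and passed the filter through their KO values, so the count of 7 is a description. The median log2 fold change of the 7 genes was 0.76 and that of all tested genes 0.08, on the log2(FPKM + 1) scale, which understates changes of low genes. No WT library reached the lowest KO library for C1qa, C1qc and C4b, as for 5.70% of the tested genes, and for C1s1, which was not tested.

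**Figure D1:**
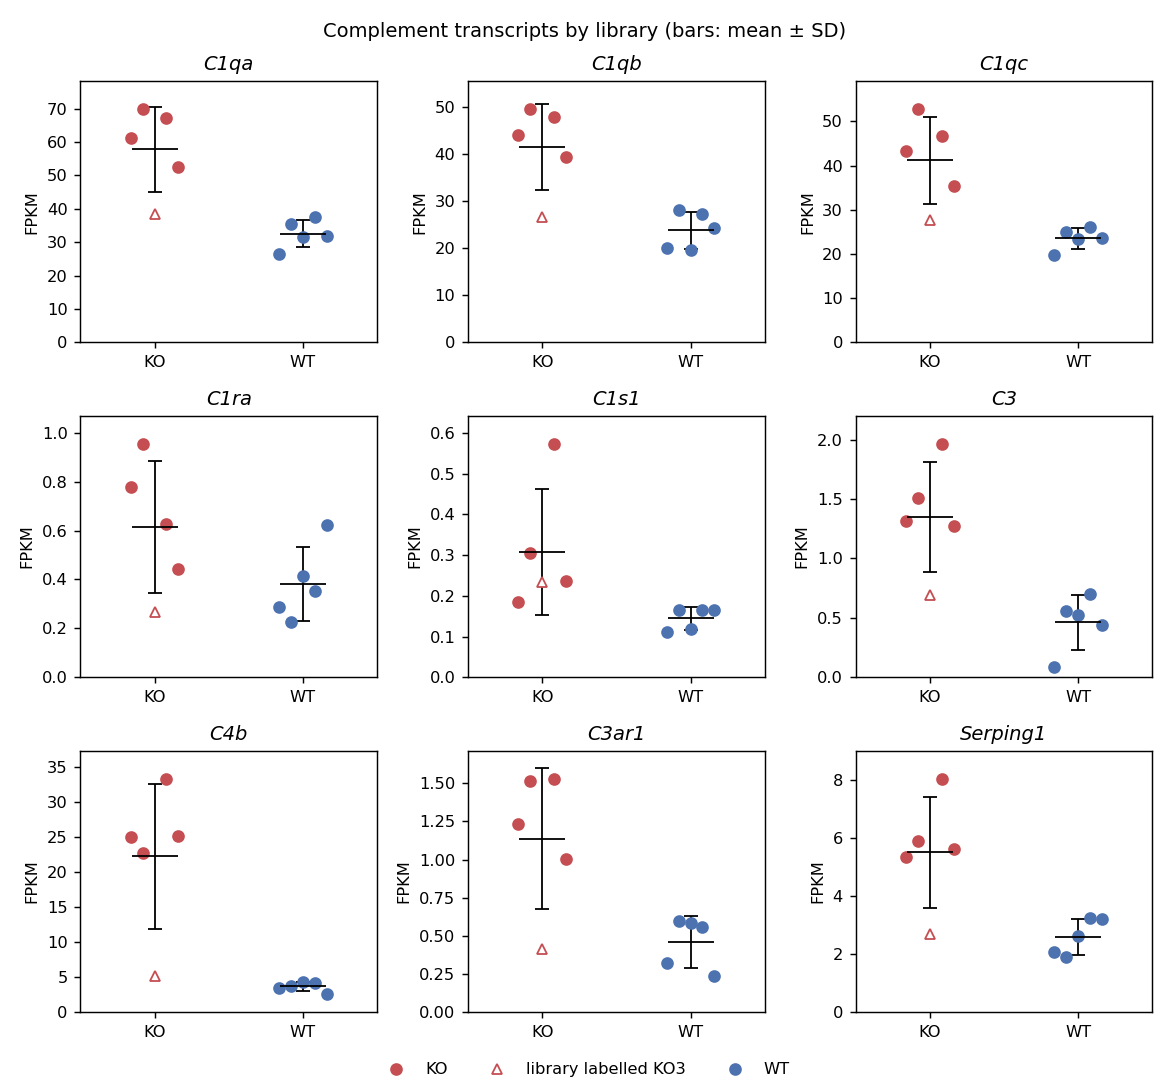
FPKM of the 9 complement genes in each library, KO on the left (red circles, with the library labelled KO3 as an open triangle) and WT on the right (blue circles); horizontal bars are group means and error bars the SD (n = 5 each). Each axis starts at 0. For 8 of the 9 genes, C1ra being the exception, the other 4 KO libraries lay above every WT library.

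The C1q genes lie side by side on chromosome 4 (mm10, minus strand): C1qb from 136880129 to 136886187, C1qc from 136889804 to 136893065 and C1qa from 136895917 to 136898803. C1qa, which encodes the A chain, measured 61.2, 69.8, 38.5, 67.1 and 52.5 FPKM in KO1 to KO5, against 26.5, 35.4, 31.7, 37.4 and 31.8 FPKM in WT1 to WT5. The groups did not overlap, although the library labelled KO3 lay close to the highest WT library. Its mean was 57.8 ± 12.7 FPKM in KO and 32.6 ± 4.16 FPKM in WT (SD, n = 5 each), a log2 fold change of 0.79 (SE 0.15, limma adjusted p = 0.0186). C1qb, the B chain, measured 44.0, 49.5, 26.6, 47.8 and 39.4 FPKM in KO1 to KO5, against 19.97, 28.0, 19.7, 27.3 and 24.2 FPKM in WT1 to WT5. Here the library labelled KO3 lay below WT2 and WT4, and the other KO libraries lay above all WT libraries. Its log2 fold change was 0.76 (SE 0.16, limma adjusted p = 0.0186). C1qc, the C chain, measured 43.3, 52.8, 27.8, 46.8 and 35.4 FPKM in KO1 to KO5, against 19.7, 25.0, 23.4, 26.1 and 23.7 FPKM in WT1 to WT5. The groups did not overlap, and its log2 fold change was 0.75 (SE 0.14, limma adjusted p = 0.0186).

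The proportions of the chains did not differ detectably between the groups. In FPKM, which is per length, C1qb was 0.717 ± 0.0213 of C1qa in KO and 0.732 ± 0.0656 in WT, and C1qc was 0.711 ± 0.0306 of C1qa in KO and 0.726 ± 0.0220 in WT (SD, n = 5 each). The log2 ratios differed by -0.03 and -0.04, KO minus WT (exact two-sided permutation p = 0.659 and 0.310, adjusted p over 4 ratios 0.833 and 0.619). A p above the threshold does not show that the proportions are equal. The 3 tested genes within 100 kb of the C1q genes, Ephb2, Epha8 and Zbtb40, were not called, with log2 fold changes of -0.27, 0.00 and -0.21 (SE 0.11, 0.08 and 0.08).

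Homeostatic microglia markers moved less than C1q. Of the 12 homeostatic microglia markers Sall1 and Olfml3 were called higher and none lower, and their summed level was 147 to 177 FPKM in KO and 134 to 158 FPKM in WT. The most abundant was Csf1r, the receptor that microglia need to survive, at 30.5 FPKM in KO and 26.6 FPKM in WT. In whole tissue, more cells of a type and more RNA per cell cannot be told apart. Set against the mean log2 level of these markers, C1qa was higher in KO than in WT by 0.68, C1qb by 0.65 and C1qc by 0.64 on the log2 scale (exact two-sided permutation p = 0.0159, 0.0238 and 0.00794, adjusted over the 9 genes 0.0286, 0.0357 and 0.0286). Border macrophage and blood myeloid markers had 0 of 7 tested genes called in limma, with a summed level over the 12 genes of 6.56 to 9.65 FPKM in KO and 5.14 to 7.29 FPKM in WT. Ccr2, Ly6c2, Plac8, Ms4a7 and S100a9, most of them markers of blood monocytes and neutrophils, had means over the 10 libraries under 0.5 FPKM, although S100a9 averaged 0.510 FPKM in KO and 0.255 FPKM in WT.

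The proteases that C1q activates were scarce. C1ra and C1s1 lie on chromosome 6, from 124512632 to 124523440 on the plus strand and from 124530345 to 124542359 on the minus strand, and both fell under the filter, with means over all libraries of 0.497 and 0.226 FPKM. C1s1, the protease that cleaves C4, measured 0.185, 0.306, 0.234, 0.573 and 0.236 FPKM in KO1 to KO5, against 0.110, 0.165, 0.119, 0.164 and 0.166 FPKM in WT1 to WT5. The groups did not overlap (exact two-sided permutation p = 0.00794, the smallest that 5 against 5 libraries allow), but each library held only 15 to 41 fragments in KO and 8 to 14 in WT. With no filter its log2 fold change was 0.18 (SE 0.07, limma adjusted p = 0.144). C1ra, the protease that activates C1s, measured 0.778, 0.955, 0.267, 0.628 and 0.443 FPKM in KO1 to KO5, against 0.289, 0.227, 0.415, 0.351 and 0.621 FPKM in WT1 to WT5. The groups overlapped, with the library labelled KO3 below 4 of the 5 WT libraries and WT5 close to KO4 (exact two-sided permutation p = 0.119; limma adjusted p = 0.323 with no filter). Of the 100-base windows of the longest C1ra transcript 34.5% also occur in its paralog C1rb, which was listed at 0 in every library, and 7.90% of those of C1s1 occur in C1s2. C1s1 also overlaps Gm16567 on the opposite strand, and the library kit is not stated to mark strand.

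C4b, the component cleaved by C1s, had the largest change of the 9 genes. It lies on chromosome 17 from 34728380 to 34743882 on the minus strand, and measured 25.0, 22.7, 5.22, 33.3 and 25.1 FPKM in KO1 to KO5, against 3.49, 3.72, 4.37, 4.16 and 2.65 FPKM in WT1 to WT5. The groups did not overlap, but the library labelled KO3 was close to the WT range while the other KO libraries were far above it. The log2 fold change was 2.13 (SE 0.36, limma adjusted p = 0.0180), and 3 of the 14497 tested genes, C4b included, had a value this high. Without the library labelled KO3 the ratio of means was 7.21 and the log2 fold change 2.56 (SE 0.13, limma adjusted p = 3.23e-06). None of the 8 tested genes within 100 kb of C4b was called in limma.

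Reads of C4b can be shared with its close copy C4a, which measured 0.169 ± 0.0792 FPKM in KO and 0.144 ± 0.0320 FPKM in WT (SD, n = 5 each). The longest transcripts of the 2 genes in GENCODE release M21 are identical at 96.1% of 5367 aligned bases, and 16.5% of the 100-base windows of C4b occur unchanged in C4a. The coding stretch of 90 bases that separates them best is shown as an example, with the 14 differing bases in capitals. It is not the only place where reads of the 2 genes differ.
C4b, transcript bases 2731 to 2820: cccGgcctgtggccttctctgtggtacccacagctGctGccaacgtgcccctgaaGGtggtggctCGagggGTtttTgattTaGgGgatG
C4a, transcript bases 2725 to 2814: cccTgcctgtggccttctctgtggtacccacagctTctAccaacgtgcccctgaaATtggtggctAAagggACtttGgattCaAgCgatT
How the authors assigned such reads is not given in the sources used here.

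Reactive astrocyte genes were also higher in KO. Of 10 tested reactive astrocyte genes 8 were called higher, beside 9.77% of all tested genes. The 8 include a gene with a WT mean under 0.5 FPKM, which passed the filter through its KO values. The summed level of the 12 was 140 to 833 FPKM in KO and 106 to 146 FPKM in WT. In the library labelled KO3 it was 140 FPKM. The part of these genes in the C4b result was not tested. Gfap and Vim, intermediate filaments of astrocytes, averaged 427 and 42.7 FPKM in KO and 97.9 and 13.4 FPKM in WT. Of 13 general astrocyte markers Aqp4 alone was called, higher in KO, and their summed level was 1131 to 1469 FPKM in KO and 1228 to 1409 FPKM in WT. The most abundant of these were Slc1a2, a glutamate transporter, at 383 FPKM in KO and 441 FPKM in WT, and Aldoc, a glycolytic enzyme, at 282 FPKM in KO and 286 FPKM in WT. Relative to the mean log2 level of the general markers, C4b was higher in KO by 2.03 (exact two-sided permutation p = 0.00794, adjusted p over the 9 genes 0.0286).

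C3, the component on which the complement pathways converge, was low in both groups. It lies on chromosome 17 from 57203970 to 57228136 on the minus strand, and measured 1.31, 1.505, 0.689, 1.96 and 1.27 FPKM in KO1 to KO5, against 0.0844, 0.561, 0.521, 0.702 and 0.436 FPKM in WT1 to WT5. The library labelled KO3 lay just below WT4, and WT1 was far below the other WT libraries, with 12 fragments against 55 to 97. The mean was 1.35 ± 0.459 FPKM in KO and 0.461 ± 0.231 FPKM in WT (SD, n = 5 each), and the log2 fold change on log2(FPKM + 1) was 0.68 (SE 0.15, limma adjusted p = 0.0227). With a pseudocount of 0.1 it was 1.46 (SE 0.38, limma adjusted p = 0.0327). In FPKM, C4b was 15.7 ± 4.89 times C3 in KO and 13.7 ± 15.5 times C3 in WT (SD, n = 5 each), a difference smaller than the spread. The WT mean and spread of this ratio rest largely on WT1, with C4b at 3.49 FPKM and C3 at 0.0844 FPKM. They therefore do not show that the proportion was alike in the groups. After adding 1 FPKM to each gene, the log2 ratio differed by 1.45, KO minus WT, which did not pass (exact two-sided permutation p = 0.0159, adjusted p over 4 ratios 0.0635). Without the library labelled KO3 that difference was 1.77 (exact permutation, adjusted p = 0.0317), and with a pseudocount of 0.1 and all libraries 0.90 (exact permutation, adjusted p = 0.476).

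C3ar1, the receptor of C3a on myeloid cells, lies on chromosome 6 from 122847138 to 122856161. It measured 1.23, 1.52, 0.411, 1.53 and 1.001 FPKM in KO1 to KO5, against 0.319, 0.596, 0.581, 0.561 and 0.236 FPKM in WT1 to WT5. The library labelled KO3 lay inside the WT range, below 3 WT libraries, and the other 4 KO libraries lay above it. The log2 fold change was 0.53 (SE 0.15, limma adjusted p = 0.0434), the smallest of the 7, and with a pseudocount of 0.1 it was 1.10 (limma adjusted p = 0.0513). Relative to the homeostatic microglia markers C3 was higher in KO by 0.57 and C3ar1 by 0.42 on the log2 scale (exact two-sided permutation p = 0.0159 and 0.0397, adjusted over the 9 genes 0.0286 and 0.0446). With a pseudocount of 0.1 these differences were 1.34 and 0.98 (exact permutation, adjusted p = 0.0357 and 0.0476). C3 was not set against astrocyte markers, although astrocytes are a known source of it, so its comparison does not assign C3 to a cell type. The C3ar1 comparison passed without the library labelled KO3 and without WT3, and did not pass when any of the other 8 libraries was left out (exact permutation, adjusted p between 0.0510 and 0.0804). Without WT5 the adjusted p of none of the 9 marker comparisons was under 0.05.

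Serping1 encodes the C1 inhibitor, which inactivates C1r and C1s. It lies on chromosome 2 from 84765387 to 84775444 on the minus strand, and measured 5.36, 5.90, 2.68, 8.05 and 5.61 FPKM in KO1 to KO5, against 2.06, 1.90, 2.63, 3.24 and 3.20 FPKM in WT1 to WT5. The library labelled KO3 lay inside the WT range and the other 4 KO libraries above it. The log2 fold change was 0.81 (SE 0.20, limma adjusted p = 0.0270). Of the 10 tested genes within 100 kb, Ube2l6, an interferon-induced ubiquitin-conjugating enzyme, and Tmx2 were called higher, with log2 fold changes of 0.70 and 0.32 (limma adjusted p = 0.0196 and 0.0419).

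Meningeal fibroblast markers, from cells known to express Serping1 and the C1 proteases, were also higher in KO. Of 12 such genes 8 were called higher and none lower, beside 9.77% and 3.51% of all tested genes. Their summed level was 83.2 to 147 FPKM in KO and 65.9 to 92.6 FPKM in WT, with 83.2 FPKM in the library labelled KO3. The most abundant were Igf2, a growth factor, at 31.9 FPKM in KO and 27.7 FPKM in WT, and Col1a2, a collagen chain, at 16.8 FPKM in KO and 11.3 FPKM in WT. Relative to the mean log2 level of these markers Serping1 differed by 0.18, KO minus WT, which did not pass (exact two-sided permutation p = 0.246). On the same scale C1ra and C1s1 were lower in KO by 0.41 and 0.45, that is -0.41 and -0.45 (exact two-sided permutation, adjusted p over the 9 genes 0.0286 and 0.0408). The C1s1 comparison likewise passed only without the library labelled KO3 and without WT3 among the fits that left out 1 library (exact permutation, adjusted p between 0.0536 and 0.0714 in the other 8). A pseudocount of 1 compresses the changes of these low genes, and with 0.1 the differences were -0.24 and -0.10 (exact permutation, adjusted p = 0.446 and 0.706).

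**Figure D2:**
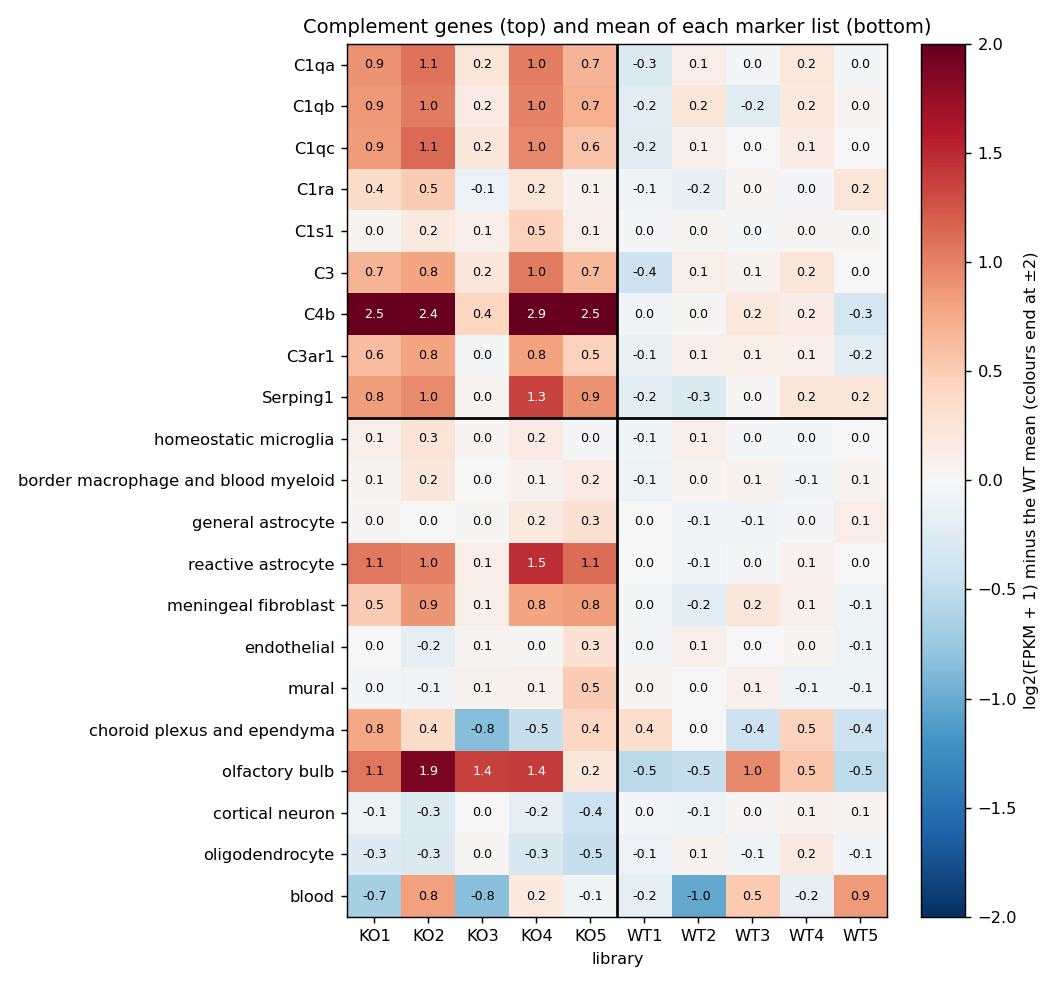
Level of each complement gene (top rows, log2(FPKM + 1)) and mean of each marker list on the same scale (bottom rows) in the 10 libraries, minus the WT mean of the row, KO libraries on the left and WT on the right; red is above and blue below the WT mean, and colours end at 2. The library labelled KO3 is nearer to the WT mean than to the other KO libraries for the 7 tested genes, and near it for the reactive astrocyte and meningeal lists, and high for the olfactory bulb list.

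The order of the levels was the same in both groups. By mean FPKM it ran, in KO, from C1qa at 57.8, C1qb at 41.5, C1qc at 41.2, C4b at 22.3 and Serping1 at 5.52 to C3 at 1.35, C3ar1 at 1.14, C1ra at 0.614 and C1s1 at 0.307. In WT it ran from C1qa at 32.6, C1qb at 23.8, C1qc at 23.6, C4b at 3.68 and Serping1 at 2.61 to C3 at 0.461, C3ar1 at 0.459, C1ra at 0.381 and C1s1 at 0.145. C1qa lay above C1qb in 5 of 5 WT libraries. C1qb and C1qc, and likewise C3 and C3ar1, differed by less than the spread between WT libraries. KO4 was the highest KO library for 5 of the 9 genes and KO2 for the other 4.

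The library labelled KO3 lay nearer to WT than to the other KO libraries for all 7 tested genes. Its log2(FPKM + 1) value covered 26.4%, 18.7% and 26.4% of the distance from the WT mean to the mean of the other 4 KO libraries for C1qa, C1qb and C1qc. It covered 16.6% for C4b, 28.5% for C3, 4.78% for Serping1 and -5.98% for C3ar1, the minus sign meaning below the WT mean. Without it the 7 genes stayed higher in KO, with log2 fold changes of 0.67 for C3ar1 to 2.56 for C4b (limma adjusted p between 3.23e-06 and 0.00198), in a fit that called 19.6% of tested genes higher. The other 4 KO libraries lay above every WT library for 8 of the 9 genes, the 7 tested and C1s1, which was not tested. Among all tested genes the share was 17.8%.

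The calls depended on which libraries were fitted. Without WT1, without KO2 or without KO4, 0 of the 7 genes passed (limma adjusted p between 0.0514 and 0.1, between 0.0517 and 0.0985, and between 0.0555 and 0.111), although all 7 were higher with an unadjusted p under 0.05 in each fit. Each of those fits called 0.00690% of tested genes higher. In the same order, 3934, 4114 and 3742 of the 14497 tested genes had an unadjusted p under 0.05, in either direction. When the mean level of olfactory bulb markers entered the fit, 0 passed, 0.00% of tested genes were called higher and 6 had an unadjusted p under 0.05 (limma adjusted p between 0.159 and 0.391), with C4b at 2.10 and C1qa at 0.64 on the log2 scale. With that covariate and without the library labelled KO3, 7 passed (limma adjusted p between 0.000146 and 0.0492), where 6.22% of tested genes were called higher. Within the 4 KO and 2 WT libraries with Omp of at least 1 FPKM, C4b differed by 1.85 and C1qa by 0.73 (limma adjusted p = 0.356 for each; 0 of 7 passed, 5 with an unadjusted p under 0.05; 0.00% of tested genes called higher). The libraries with less Omp were KO5 and WT1, WT2 and WT5. In them C4b differed by 2.62 and C1qa by 0.74 on the log2 scale, KO minus WT. That fit holds 1 KO library, assumed to vary like the WT libraries, so its count of 1 gene passed (C4b), with 1.13% of tested genes called higher, is no test of genotype. With no filter on low values 4 of the 7 passed, where 1.37% of genes were called higher, and 6 passed in a fit with the replicate number as a term, where 6.10% were.

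**Figure D3:**
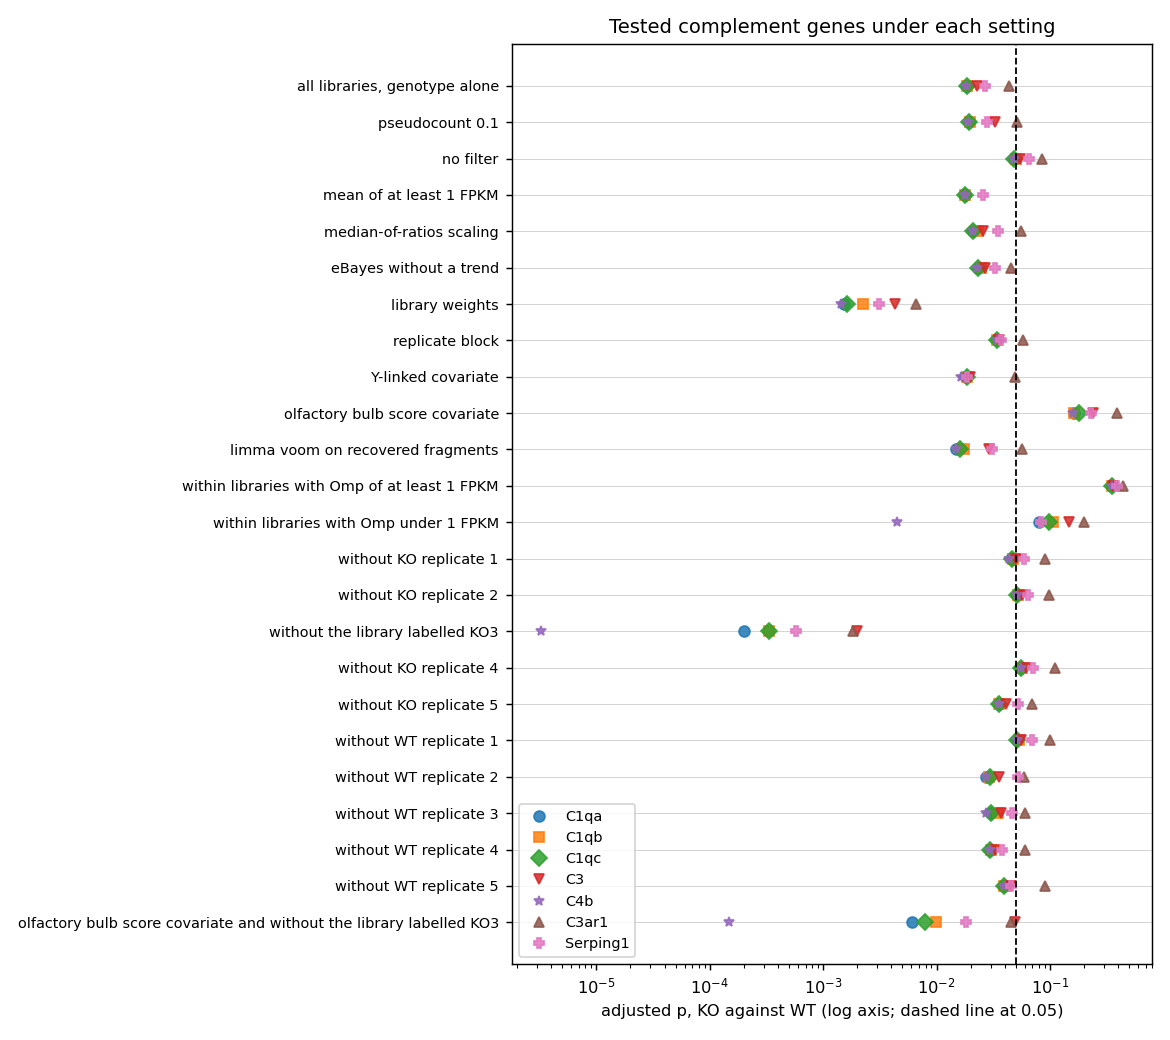
Adjusted p of the 7 tested complement genes for KO against WT under each setting, on a log axis with a dashed line at 0.05. All 7 lie left of the line with all libraries, and right of it without KO replicate 2, KO replicate 4 or WT replicate 1, with the olfactory bulb score and within libraries with Omp of at least 1 FPKM.

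Outside these 9 genes the complement system was mostly at low levels or not called. Of 45 further complement genes 17 passed the filter. Of these, 4 were called higher, 2 lower and 11 neither, beside 9.77% and 3.51% of all tested genes, with a median log2 fold change of 0.12. Among 12 initiation genes of the classical and lectin pathways Masp1, a lectin pathway protease, was the 1 gene tested, and it was not called. Cfp, which stabilises the alternative convertase, was the 1 tested of 3 alternative pathway genes, and C8g, a subunit of the terminal complex, the 1 tested of 7 terminal genes. Neither was called. C5ar1, the C5a receptor, was under the filter at 0.581 ± 0.227 FPKM in KO and 0.291 ± 0.118 FPKM in WT (SD, n = 5 each).

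The genes called were receptors and regulators, of which 3 and 11 were among the 17 genes tested. Itgb2, the shared beta chain of the C3 fragment receptors CR3 and CR4, had a log2 fold change of 0.41 (SE 0.08, limma adjusted p = 0.0186), with 2.34 ± 0.340 FPKM in KO and 1.495 ± 0.101 FPKM in WT (SD, n = 5 each), and its groups did not overlap. Itgax, the alpha chain of CR4, rose by 0.85 (limma adjusted p = 0.0233), with 1.11 ± 0.649 FPKM in KO and 0.124 ± 0.0919 FPKM in WT, and passed the filter only through KO. Itgam, the alpha chain of CR3, did not pass, at 5.28 ± 0.680 FPKM in KO and 5.10 ± 0.435 FPKM in WT (limma adjusted p = 0.773). Susd4, whose human protein inhibits complement, rose by 0.19 (limma adjusted p = 0.0228). Csmd1, whose human protein is a complement inhibitor, and its relative Csmd2 fell by 0.23 each on the log2 scale (limma adjusted p = 0.0466 and 0.0302), with every KO library below every WT library. The share of all tested genes with KO below WT in this way was not counted. Clu, Vtn and Cr1l, abundant regulators, did not pass, with log2 fold changes of 0.13, 0.12 and 0.01 (limma adjusted p = 0.267, 0.228 and 0.934). Without WT1, KO2 or KO4, 0 of the 17 genes passed in limma, while 6, 6 and 7 had an unadjusted p under 0.05. Among all 14497 tested genes, 3934, 4114 and 3742 did so in those fits.

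**Figure D4:**
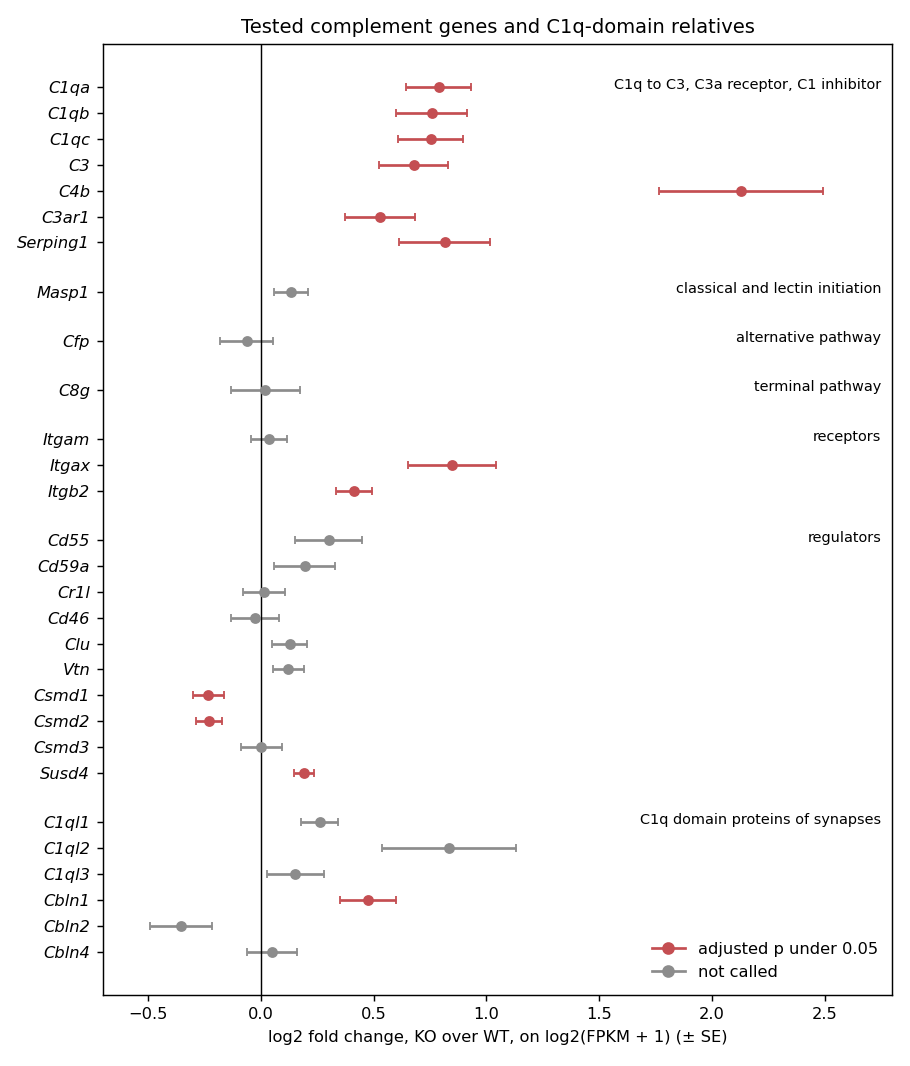
Log2 fold change, KO over WT, on the log2(FPKM + 1) scale with its SE, for the 7 tested complement genes (top), 16 of the 17 tested genes of the wider complement lists and 6 related C1q-domain genes of synapses (bottom). Red marks an adjusted p under 0.05 and grey the rest. C4b lies furthest right, at 2.13.

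Over the 10 libraries, the 5 genes whose log2(FPKM + 1) followed that of C4b most closely were Lyz2 (Pearson r = 0.994), Tap1 (0.993), Pdlim4 (0.991), Gfap (0.990) and Ggta1 (0.989). Lyz2 is a lysozyme of myeloid cells, whose reads can be shared with Lyz1, and Tap1 a subunit of the antigen peptide transporter. For the mean of the C1q chains they were Irgm1 (Pearson r = 0.986), Ctss (0.985), Psma6 (0.982), Arl5c (0.977) and Hsbp1 (0.976). Irgm1 is an interferon-induced GTPase and Ctss a lysosomal protease of microglia. These r values describe 10 libraries that share the 2 genotypes and the library labelled KO3.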

How the data were processed

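Groups and replicate numbers came from the sample titles. The deposited FPKM are the authors' values per gene and library. Per the submitters' processing notes mm10 and DESeq2 were used in a role that is not named, and the aligner and counting tool were not given in the sources used here. FPKM times gene length, a deposited column in bases with no other normalization, gave whole fragments in 100% of values above 0, within 0.02. Each of the 45 pairs of libraries differed beyond counting noise, with a chi-square per gene of at least 6.80. The series' design text calls the samples of a group biological repeats.

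The KO and WT libraries were fitted with limma 3.58.1 (R 4.3.3; lmFit and trended eBayes) as log2(FPKM + 1), keeping genes whose mean reached 0.5 FPKM, with two-sided tests and Benjamini-Hochberg adjusted p under 0.05 over all 14497 genes. The step was tested on simulated counts that held no library apart from its group and no olfactory bulb difference. That test therefore does not cover those features of the data. Alternatives were another pseudocount, filter, scaling and eBayes setting, library weights, the replicate block, Y-linked and olfactory bulb covariates, fits within Omp levels, voom on whole fragments and leaving out each library; the olfactory bulb covariate without KO3 was added after the data were seen. Ratios were tested by exact permutation over the samples. Genes named were the 9 genes, listed complement genes that passed or had a mean of at least 5 FPKM, the 2 most abundant markers of a list and the 5 genes most like C4b or C1q, without predicted, pseudogene and sex-linked genes; names in small counts, neighbours, C5ar1 and paralogs were added after their values were seen. Values of 2 genes that this rule names are not reported here. The genes and lists were chosen with earlier results of these data known. Of the listed genes 2 were matched by identifier because the table uses an older symbol. Promoters are from RefSeq and transcripts from GENCODE release M21, both on the build that mm10 names.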

Additional observations from a re-analysis of the deposited data

Results flagged for a closer look

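In 88 groups of 5 libraries, 7 held a library far from the others of its group, where chance gives about 1 in 20. The groups share libraries, genes and marker lists, so the 7 are not independent and do not show an excess over chance. Of the 7, 5 were the library labelled KO3. It was the lowest KO library for the log2 ratio of C4b to C3 (1.88). Relative to their marker lists it was the lowest for C1qa (1.80), C1qb (1.29), C4b (-3.22) and C3ar1 (-3.00), in log2 units. The others were WT4 for Itgax, at 0.285 FPKM the highest WT library, and KO5 for the mean log2(FPKM + 1) of mural markers, at 2.84 the highest KO library.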

How the results depend on the processing

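The main comparison called 1926 genes, 1417 higher and 509 lower in KO, and 625 higher and 901 lower with median-of-ratios scaling. Other counts were 465 with no filter, 3557 with library weights, 1271 with the replicate block, 0 with the olfactory bulb score (2708 with an unadjusted p under 0.05 in limma), 0 within libraries with Omp of at least 1 FPKM (1908 unadjusted) and 258 within those with less. Leaving out 1 library gave 2 to 3763. Of the 7 complement genes tested 4 passed with no filter, 0 with the score, 0 and 1 within the Omp groups, and 0 to 7 when 1 library was left out. Each of the 7 stayed higher in KO under every alternative run. C3ar1 lost its call under 17 of 22 alternatives, C3 under 8 of 22, Serping1 under 10 of 23, the C1q chains under 6 of 23 each and C4b under 5 of 23. Of the further complement genes 6 passed, and 2, 0, 0 and 0 under those 4 alternatives, with 0 to 7 when 1 library was left out. Of the ratios of genes 0 passed, 0 to 1 when 1 library was left out. The log2 ratio of C1s1 to C1ra, -0.03, reversed to 0.14 with a pseudocount of 0.1, and was -0.096 to 0.041 when 1 library was left out, with reversals to 0.041 without KO1, 0.040 without KO2 and 0.015 without WT2. Of the 9 marker comparisons 8 passed, 0 to 8 when 1 library was left out, 0 without WT5. With the replicate block 0 passed, since the sign-flip test over 5 pairs cannot go below 0.0625. Whether the replicate numbers pair the samples cannot be told from these data. Same-numbered libraries deviated together with correlations of 0.14, -0.04, -0.06, 0.14 and 0.11, and 2 of 5, numbers 4 and 5, matched their own number best. Y-linked transcripts were scored as present in KO4, KO5, WT4 and WT5 and in no other library, so the numbers matched in this respect. With the replicate block 6 of the 7 genes passed, C3ar1 being the exception (limma adjusted p = 0.0583). The cause of each change was not tested. Fragment counts of 8 to 41 per library limit C1s1, and C1ra had 17 to 70.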

Other observations

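C1q-domain proteins of synapses share a globular domain with C1q but are not complement components. Of 8 such genes 6 were tested and Cbln1, which encodes a synaptic organiser that is prominent in cerebellum, was the 1 gene called, with a log2 fold change of 0.48 (SE 0.12, limma adjusted p = 0.0315). It measured 8.33 ± 1.52 FPKM in KO and 5.70 ± 1.04 FPKM in WT (SD, n = 5 each), and the groups overlapped. C1ql3, the most abundant, measured 43.9 ± 8.50 FPKM in KO and 38.9 ± 4.31 FPKM in WT and did not pass (limma adjusted p = 0.422). C1ql2 had 9.77 ± 4.62 FPKM in KO and 4.74 ± 1.55 FPKM in WT (limma adjusted p = 0.0757), and C1ql1 had 10.2 ± 1.48 FPKM in KO and 8.31 ± 0.488 FPKM in WT (limma adjusted p = 0.0523), with groups that did not overlap. Cbln2 was 11.0 ± 2.88 FPKM in KO and 14.0 ± 1.27 FPKM in WT, and did not pass either (limma adjusted p = 0.0956). The olfactory bulb score differed between the groups as well, and its part in these values was not tested.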
